A study of Mus musculus with 11 samples.

Results

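Imprinted genes are transcribed mainly from the copy inherited from the father or mainly from the copy inherited from the mother, and 42 of them were followed here in newborn mouse ovaries that lack the germ cell transcription factor gene Sohlh1 or Sohlh2. The members were chosen by name, with earlier results of these data known. Every probe carrying one of their symbols was read, with the brightest probe standing for a gene. Of the 42 genes, 21 are known as paternally expressed, 18 as maternally expressed, and for 3 (Grb10, Gnas and Begain) the expressed copy differs between tissues or transcripts or is unsettled. Probes were found for 39 genes, 100 probes in all. The signal of 28 genes lay above background on at least 3 arrays and could be tested (15 paternally expressed, 11 maternally expressed, and Grb10 and Gnas), out of 13350 genes tested in the series. The other 11 stayed below background, and H19, Snrpn and Zrsr1 were not analysed here.

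The groups were Sohlh1 knockout ovaries (Sohlh1 KO, 4 arrays), Sohlh2 knockout ovaries (Sohlh2 KO, 3 arrays, numbered 2, 3 and 4 in their titles) and wild-type ovaries (4 arrays), all newborn and all on the C57BL/6/129S6/SvEv background, with no treatment named. Ovary RNA of each sample was read on an Illumina bead array of the MouseWG-6 v2 type. How the alleles were made is not given in the labels, nor is whether replicates came from separate animals, so that p-values measure the spread between these samples. Values below are normalized log2 intensities unless a fold is named, errors are SD over arrays or, for differences, SE of the fit, and precision is limited by the number of arrays.

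Imprints are DNA methylation marks that are erased in primordial germ cells of both sexes and set again by germ line, in female mice during oocyte growth after birth. The marked differences are then kept in the body cells of the offspring by a machinery that includes the zinc finger protein ZFP57, TRIM28 and DNMT1. Many imprinted genes act on fetal growth, with paternally expressed genes often promoting it and maternally expressed genes often restraining it. A group of them (Igf2, H19, Plagl1, Mest, Peg3, Dlk1, Meg3, Grb10, Ndn and Cdkn1c) is known in mice for high levels in fetal organs and a shared decline after birth.

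These start regions are printed because they belong to the member that fell most and to members that rose, and because each is known to lie in a stretch methylated on the maternal copy. Sequences are RefSeq's for GRCm38.p6, given 5′ to 3′ on the gene's strand, and capitals mark the core motif of ZFP57, TGCCGC, on either strand. The first holds the 250 bases before the start of Nap1l5 (chr6:58907127-58907376, minus strand), the second the 250 bases before a start of Mest (chr6:30737800-30738049, plus strand), and the third the 96 bases between the facing starts of Peg3 and Usp29 (chr7:6730463-6730558, printed on the strand of Peg3, minus).
Nap1l5: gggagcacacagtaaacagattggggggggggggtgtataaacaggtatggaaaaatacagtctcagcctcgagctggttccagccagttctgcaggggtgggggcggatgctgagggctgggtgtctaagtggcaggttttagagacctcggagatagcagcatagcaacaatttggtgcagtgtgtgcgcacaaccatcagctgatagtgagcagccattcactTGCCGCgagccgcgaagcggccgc
Mest: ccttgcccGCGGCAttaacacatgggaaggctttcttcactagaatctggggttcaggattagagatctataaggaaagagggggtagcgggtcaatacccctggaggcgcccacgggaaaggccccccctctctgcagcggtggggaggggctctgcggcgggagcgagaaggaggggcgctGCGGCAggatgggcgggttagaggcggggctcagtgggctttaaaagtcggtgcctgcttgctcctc
Peg3 and Usp29: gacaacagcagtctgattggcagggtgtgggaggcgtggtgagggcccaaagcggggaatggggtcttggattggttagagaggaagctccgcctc
The core motif stood once before Nap1l5, at 2 places before Mest and at 0 places between Peg3 and Usp29, against a share of 8.68% of 32851 RefSeq start windows (250 bases before the start) with at least 1. Among 55 windows of 33 members, 8 held it. The letters CANNTG, the E-box bound by basic helix-loop-helix proteins as a class, stood at 2 places before Nap1l5, at 1 before Mest and at 0 between Peg3 and Usp29. At least 1 was in 66.2% of all windows and in 35 of the members' 55, and binding was not measured. The stretch between Peg3 and Usp29, at 96 bases, is shorter than these windows, so its counts are not comparable with either share.

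Most of the tested imprinted genes that changed were higher in the knockouts. In Sohlh1 KO 14 of the 28 rose and 2 fell by limma's moderated test with an adjusted p under 0.05, where 16.3% of all genes rose and 16.4% fell (32.7% in either direction). In Sohlh2 KO 12 rose and 1 fell, where 12.5% of all genes rose and 13% fell (25.5% in either direction). The median log2 difference of the 28 was 0.449 in Sohlh1 KO and 0.381 in Sohlh2 KO, against 0.035 and 0.044 over all genes tested, and 0.42 and 0.38 with Zim1, Rtl1 and Usp29 at the bounds given below. Both comparisons use the same 4 wild-type arrays, and the members that passed the background filter include some that passed it only through the knockouts. The members were also chosen with earlier results of these data known, so these counts are a description of this list. Of 33 tested imprinted genes outside it, 9 rose and 10 fell in Sohlh1 KO, and 7 rose and 6 fell in Sohlh2 KO. With chip as a block 12 rose in Sohlh1 KO and 8 in Sohlh2 KO. Of all 13350 genes, 3588 and 1712 were then called in either direction. Among the 21 members above background on all 11 arrays, 12 rose and 1 fell in Sohlh1 KO, and 9 rose and 0 fell in Sohlh2 KO. The all-gene shares above include fainter genes, and no share was taken over genes above background on all 11 arrays.

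Sohlh1 was checked first and was low in both knockouts. It averaged 8.69 ± 0.29 in Sohlh1 KO (SD, n = 4) and 8.70 ± 0.11 in Sohlh2 KO (SD, n = 3), against 11.26 ± 0.15 in wild type (SD, n = 4). Sohlh2 was faint everywhere, at 5.71 ± 0.44 in Sohlh1 KO (SD, n = 4) and 4.70 ± 0.06 in Sohlh2 KO (SD, n = 3), against 5.01 ± 0.14 in wild type (SD, n = 4). It was called only in Sohlh1 KO, where it rose (adjusted p = 0.0115, limma; 0.284 in Sohlh2 KO). Sohlh2 was above background on 4 of 4 Sohlh1 KO arrays, 0 of 3 Sohlh2 KO arrays and 3 of 4 wild-type arrays. The knockouts did not overlap for it, with Sohlh1 KO arrays between 5.38 and 6.35 and Sohlh2 KO arrays between 4.66 and 4.76, a difference of 1.01 ± 0.20 SE that missed the threshold over all genes (adjusted p = 0.0811, limma). Whether either probe lies in a deleted stretch is not known. Chip 1 carried wild type 1 to 4 with Sohlh1 KO 1 and 2, and chip 2 carried the remaining Sohlh1 KO arrays with all Sohlh2 KO arrays, so Sohlh2 KO and wild type never met on a chip.

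The make-up of the tissue differed too, and in whole ovaries fewer cells of a type and less RNA per cell cannot be told apart. Summed linear intensities of marker lists are given with the counts of members called by limma. Growing-oocyte markers fell for 8 of 10 in Sohlh1 KO and 9 of 10 in Sohlh2 KO. Their sum was 1040 to 1250 in Sohlh1 KO, 1210 to 1410 in Sohlh2 KO, and 35400 to 45300 in wild type. Early germ cell markers (7 tested, without Sycp3 and Mael) rose for 7 and 6, with 7380 to 15400 in Sohlh1 KO, 7720 to 8410 in Sohlh2 KO, and 828 to 1400 in wild type. That sum leans on Taf7l, the brightest of them in the knockouts (12.57 in Sohlh1 KO and 12.28 in Sohlh2 KO, against 5.79 in wild type). Ddx4 rose least, 2.77-fold in Sohlh1 KO, and missed in Sohlh2 KO (2.01-fold, adjusted p = 0.0572, limma). Multiciliated and oviduct markers fell for 7 and 6 of 8, with 968 to 1140 in Sohlh1 KO, 1360 to 1560 in Sohlh2 KO, and 18600 to 24400 in wild type. Smooth muscle markers (5 tested, without Cnn1) fell for 4 and 3, with 13500 to 19500 in Sohlh1 KO, 22000 to 25300 in Sohlh2 KO, and 34600 to 37400 in wild type. Theca and steroidogenic markers (4 tested, without Star and Lhcgr) all fell, with 175 to 261 in Sohlh1 KO, 167 to 209 in Sohlh2 KO, and 1890 to 3130 in wild type. Adipocyte markers (5 tested, without Cfd) fell for 3 in each, with 139 to 160 in Sohlh1 KO, 136 to 152 in Sohlh2 KO, and 1350 to 2480 in wild type. Granulosa markers split, with 1 of 8 higher and 3 lower in each knockout, and summed to 4860 to 5860 in Sohlh1 KO, 5070 to 5860 in Sohlh2 KO, and 11900 to 14600 in wild type. Red cell markers (3 tested) rose for 3 and 2, with 27000 to 41100 in Sohlh1 KO, 24000 to 33500 in Sohlh2 KO, and 6390 to 10900 in wild type. Myeloid markers rose for 6 and 3 of 7, with 5560 to 43500 in Sohlh1 KO, 1550 to 11800 in Sohlh2 KO, and 1100 to 2080 in wild type. The stroma list holds Dcn, itself one of the imprinted members, as its brightest gene (14.32 in wild type), so its sum is not independent of the members. The sums of stroma markers overlapped between groups, with 38800 to 49800 in Sohlh1 KO, 39400 to 43000 in Sohlh2 KO, and 39300 to 45100 in wild type, and 1 of 8 rose in Sohlh1 KO and 0 in Sohlh2 KO. So did those of endothelial markers (5 tested, without Kdr), of which 3 and 1 rose, with 2620 to 2970 in Sohlh1 KO, 2240 to 2880 in Sohlh2 KO, and 2410 to 3190 in wild type. Of the adrenal cortex markers (2 tested, without Cyp11b1 and Cyp21a1) 1 rose in each, with 80.6 to 138 in Sohlh1 KO, 79.6 to 87 in Sohlh2 KO, and 64.2 to 79.9 in wild type. The part of these cell types in the differences of the imprinted genes was not tested.

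Counts by role stand beside all-gene shares of 16.3% higher and 16.4% lower in Sohlh1 KO, and 12.5% and 13% in Sohlh2 KO. The first group by role passes or damps growth signals. Of its 6 members, all tested, 5 rose in Sohlh1 KO and 4 in Sohlh2 KO, and 0 fell in either. Igf2 encodes the fetal growth factor IGF2 and is paternally expressed. It was at 15, 14.87, 14.85 and 14.73 in Sohlh1 KO and at 14.82, 14.88 and 14.91 in Sohlh2 KO, against 13.73, 13.76, 14.05 and 14.29 in wild type. All 7 knockout arrays lay above the highest wild-type array, a rise of 1.87-fold in Sohlh1 KO (0.90 ± 0.14 SE as a log2 difference, adjusted p = 0.000217, limma), with 1.88-fold in Sohlh2 KO (0.91 ± 0.15, adjusted p = 0.000484). These values sit close to the top of the scale, where the brightest probe on any array reached 15.04.

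Igf2r, which is maternally expressed and encodes the receptor that takes IGF2 into lysosomes for breakdown, rose beside the ligand. It was at 9.25, 9.63, 9.92 and 9.38 in Sohlh1 KO and at 9.68, 9.70 and 9.61 in Sohlh2 KO, against 8.54, 8.89, 9.16 and 9.0 in wild type. The groups did not overlap, although Sohlh1 KO 1 was only slightly above wild type 3. The log2 differences were 0.65 ± 0.16 SE (adjusted p = 0.00893) and 0.77 ± 0.18 (adjusted p = 0.00663, limma), and a second, dimmer probe gave 0.81 and 0.83. Neither call held with chip as a block (0.54, adjusted p = 0.0659 in Sohlh1 KO, and 0.56, adjusted p = 0.256 in Sohlh2 KO).

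Grb10 encodes an adaptor that damps signalling from the insulin and IGF receptors and is expressed from the maternal copy in most tissues and the paternal copy in neurons. Its values were 13.06, 12.58, 12.76 and 12.51 in Sohlh1 KO and 12.68, 12.63 and 12.72 in Sohlh2 KO, against 11.93, 11.72, 12.21 and 11.97 in wild type. Every knockout array was above every wild-type array, by 1.71-fold on average in Sohlh1 KO (adjusted p = 0.00111), with 1.65-fold in Sohlh2 KO (adjusted p = 0.00395, limma).

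Dlk1, a paternally expressed transmembrane protein related to Notch ligands, was one of the brightest members. It was at 14.86, 14.86, 14.62 and 14.65 in Sohlh1 KO and at 14.75, 14.67 and 14.67 in Sohlh2 KO, against 14.18, 14.05, 14.27 and 14.16 in wild type. The groups did not overlap, and the rise was 1.49-fold in Sohlh1 KO (0.58 ± 0.11 SE, adjusted p = 0.0012), with 1.44-fold in Sohlh2 KO (0.53 ± 0.12, adjusted p = 0.00502, limma). The other probe of Dlk1 is dimmer, at 12.13 ± 0.34 in wild type (SD, n = 4), and rose by more, 3.27-fold in Sohlh1 KO (adjusted p = 2.3e-05), with 2.95-fold in Sohlh2 KO (adjusted p = 0.000144, limma over all probes). The size of the change depended on the probe, and the brighter one lies near the top of the scale.

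Gnas is a complex locus that gives rise to the stimulatory G protein subunit and to other transcripts from either copy. Its brightest probe was at 11.55, 11.06, 10.93 and 11.14 in Sohlh1 KO and at 10.95, 11.05 and 10.81 in Sohlh2 KO, against 10.47, 10.55, 10.55 and 10.60 in wild type. All knockout values were above the wild-type ones, and the rise passed in Sohlh1 KO (0.62 ± 0.14 SE, adjusted p = 0.00355, limma), while in Sohlh2 KO the difference was 0.39 ± 0.15 with an adjusted p = 0.0719. Of 10 Gnas probes 6 were above background, and 1 of them moved far more than the rest. That probe was above background on 0 of 4 wild-type arrays and on all knockout arrays, and it was at least 4.01-fold higher in Sohlh1 KO and at least 2.74-fold higher in Sohlh2 KO. Which Gnas transcript it reads was not settled here. Rasgrf1, an exchange factor for Ras expressed from the paternal copy, averaged 6.44 ± 0.34 in Sohlh1 KO (SD, n = 4) and 6.40 ± 0.17 in Sohlh2 KO (SD, n = 3), against 6.38 ± 0.18 in wild type (SD, n = 4), and was not called (adjusted p = 0.82 and 0.969, limma).

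**Figure D1:**
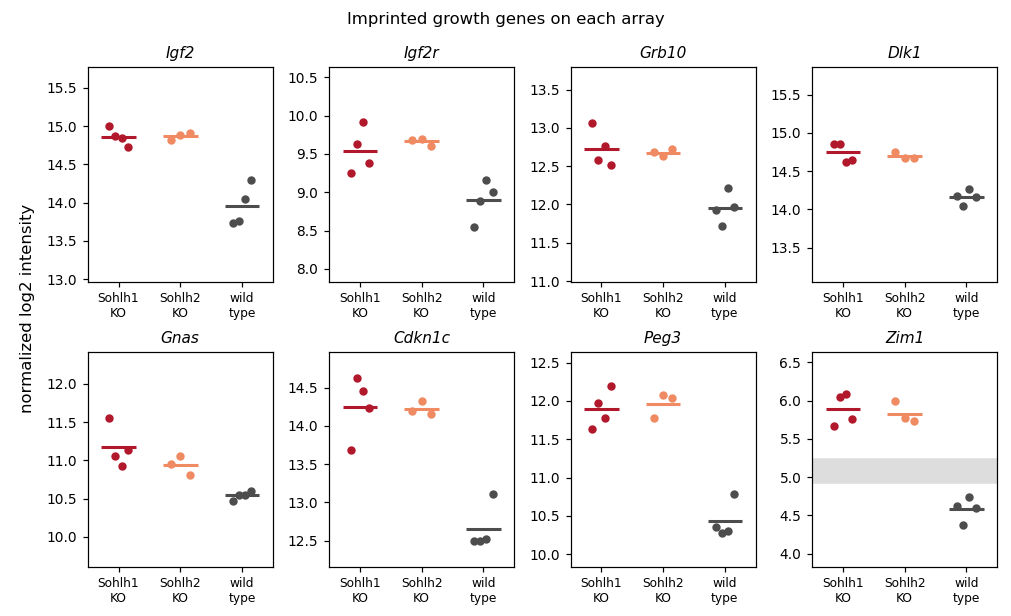
Normalized log2 intensity (vertical axis, a range of its own in each panel) of 8 imprinted growth genes on every array of Sohlh1 KO (4), Sohlh2 KO (3) and wild type (4); points are arrays, bars are group means, and the grey band is the range over arrays of the lowest signal above background. All knockout points lie above all wild-type points in each of the 8 panels, and Zim1 lies below the band in wild type. The 8 were chosen for their large differences, which favours such separation. Of the tested members of these growth groups that are not drawn, Plagl1, Phlda2 and Rasgrf1 overlapped wild type in both knockouts. Ndn did not overlap wild type in either.

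The second group holds brakes on growth and zinc finger regulators. Of 7 members 6 were tested, 4 rose in Sohlh1 KO and 3 in Sohlh2 KO, and 0 fell. Cdkn1c, the maternally expressed cyclin-dependent kinase inhibitor p57, was at 13.69, 14.63, 14.45 and 14.23 in Sohlh1 KO and at 14.20, 14.32 and 14.16 in Sohlh2 KO, against 12.49, 12.50, 12.52 and 13.11 in wild type. The lowest knockout array (Sohlh1 KO 1) still exceeded wild type 4, the highest wild-type array. The rise was 3.01-fold in Sohlh1 KO (1.59 ± 0.20 SE, adjusted p = 4.32e-05), with 2.97-fold in Sohlh2 KO (1.57 ± 0.21, adjusted p = 0.000123, limma).

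Peg3 encodes a paternally expressed zinc finger protein. It was at 11.63, 11.97, 11.78 and 12.19 in Sohlh1 KO and at 11.78, 12.08 and 12.04 in Sohlh2 KO, against 10.36, 10.28, 10.30 and 10.79 in wild type. The groups lay apart, with a rise of 2.75-fold in Sohlh1 KO (adjusted p = 1.11e-05), with 2.90-fold in Sohlh2 KO (adjusted p = 1.81e-05, limma). A second probe rose 3.37-fold and 4.12-fold, and another, below background on all wild-type arrays, was not called (adjusted p = 0.144 and 0.0747).

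Zim1, a maternally expressed zinc finger gene beside Peg3, was faint. It was at 5.67, 6.05, 6.09 and 5.76 in Sohlh1 KO and at 5.99, 5.77 and 5.73 in Sohlh2 KO, against 4.62, 4.37, 4.74 and 4.60 in wild type, where 0 of 4 arrays were above background. On background-corrected values Zim1 was therefore at least 1.88-fold higher in Sohlh1 KO (adjusted p = 7e-06) and at least 1.80-fold higher in Sohlh2 KO (adjusted p = 2.88e-05, limma). Each bound was set against the lowest signal above background. Without background correction the log2 differences were 0.42 and 0.40.

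Ndn, the paternally expressed growth suppressor necdin, averaged 13.25 ± 0.15 in Sohlh1 KO (SD, n = 4) and 13.11 ± 0.08 in Sohlh2 KO (SD, n = 3), against 12.82 ± 0.05 in wild type (SD, n = 4). It rose 1.35-fold in Sohlh1 KO (adjusted p = 0.00889, limma), and in Sohlh2 KO the difference of 0.29 had an adjusted p = 0.0952. Plagl1, a zinc finger regulator known to act on other imprinted genes, differed by 0.37 in each knockout and missed the threshold (adjusted p = 0.0538 and 0.0845). Phlda2, which restrains placental growth, differed by 0.25 ± 0.26 SE and 0.45 ± 0.28 and was not called (adjusted p = 0.496 and 0.268). Ascl2 was below background on every array.

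The list of retrogenes and retrotransposon-derived genes, which also holds Nnat and Usp29, moved in both directions. Of its 8 members 5 were tested, and 1 rose and 1 fell in Sohlh1 KO, 2 rose and 1 fell in Sohlh2 KO. Nap1l5 is a paternally expressed retrogene of the nucleosome assembly protein family that lies within the gene Herc3. It was at 5.24, 5.02, 4.85 and 4.79 in Sohlh1 KO and at 5.75, 5.32 and 4.92 in Sohlh2 KO, against 9.28, 8.83, 8.59 and 9.78 in wild type. The knockout values sat at the edge of background, with 1 of 4 Sohlh1 KO arrays and 2 of 3 Sohlh2 KO arrays above it, while all 4 wild-type arrays were well above. With arrays below background set to the lowest signal above it, Nap1l5 was at least 15.6-fold lower in Sohlh1 KO and at least 13.3-fold lower in Sohlh2 KO. The fitted log2 differences were -4.14 ± 0.24 SE (adjusted p = 3.07e-08) and -3.79 ± 0.26 (adjusted p = 2.07e-07, limma). Without background correction the differences were -2.18 and -2.08. Within chip 1 alone the fall in Sohlh1 KO was -3.99 (adjusted p = 2.58e-05). Its host Herc3, named after its values were seen, averaged 6.38 ± 0.72 in Sohlh1 KO (SD, n = 4) and 6.12 ± 0.13 in Sohlh2 KO (SD, n = 3), against 6.80 ± 0.39 in wild type (SD, n = 4), and was not called (adjusted p = 0.311 and 0.144). The fall of Nap1l5 came with that of the oocyte, theca, adipocyte and multiciliated markers given above, and their part in it was not tested.

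Rtl1, a retrotransposon-derived gene that mice need for the capillaries of the placenta, went the other way. It was at 6.07, 5.16, 6.49 and 5.49 in Sohlh1 KO and at 6.36, 5.79 and 5.93 in Sohlh2 KO, against 4.74, 4.79, 4.67 and 4.79 in wild type, where 0 of 4 arrays were above background. Rtl1 was at least 1.77-fold higher in Sohlh1 KO (adjusted p = 0.00438) and at least 2.06-fold higher in Sohlh2 KO (adjusted p = 0.00265, limma). Without background correction its log2 differences were 0.32 and 0.39. The Sohlh2 KO call ended with chip as a block (0.91, adjusted p = 0.197). Transcripts from the opposite strand of Rtl1 exist, and the probe's strand was not checked.

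Usp29, of the ubiquitin-specific protease family and transcribed away from the Peg3 start across the short stretch printed above, was faint too. Its values were 4.53, 5.22, 5.49 and 5.41 in Sohlh1 KO and 5.48, 5.43 and 5.73 in Sohlh2 KO, against 4.80, 4.59, 4.63 and 4.78 in wild type, where 0 of 4 arrays were above background. Sohlh1 KO 1 lay below all wild-type arrays, and the Sohlh1 KO difference missed the threshold (adjusted p = 0.0738), while Usp29 was at least 1.48-fold higher in Sohlh2 KO (adjusted p = 0.00756, limma). That call also ended with chip as a block (0.27, adjusted p = 0.576). Peg10, retrotransposon-derived and needed for the placenta, averaged 6.34 ± 0.66 in Sohlh1 KO (SD, n = 4) and 5.64 ± 0.36 in Sohlh2 KO (SD, n = 3), against 5.88 ± 0.32 in wild type (SD, n = 4). Sohlh1 KO 1 stood out at 7.30, and Peg10 was not called (adjusted p = 0.248 and 0.622). Nnat, which encodes a small membrane protein of neurons and endocrine cells, differed by -0.01 ± 0.14 SE and 0.28 ± 0.15 and was not called (adjusted p = 0.98 and 0.198, limma). Mcts2 and Peg12 were below background on all arrays.

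Genes of ubiquitin transfer and translation control gave 2 rises among 3 tested in each knockout. Mkrn3, a paternally expressed ubiquitin ligase known for holding back puberty, was at 9.07, 9.27, 8.88 and 9.22 in Sohlh1 KO and at 9.25, 9.13 and 8.90 in Sohlh2 KO, against 8.42, 8.33, 8.19 and 8.63 in wild type. All knockout arrays were above all wild-type arrays, with 1.64-fold in Sohlh1 KO (adjusted p = 0.00145), with 1.62-fold in Sohlh2 KO (adjusted p = 0.00363, limma). Impact, a paternally expressed regulator of the kinase GCN2, was at 11, 10.85, 10.80 and 10.88 in Sohlh1 KO and at 10.98, 10.93 and 10.98 in Sohlh2 KO, against 10.41, 10.46, 10.57 and 10.45 in wild type. The groups did not overlap although the rise was small, 1.33-fold (adjusted p = 0.00752) and 1.41-fold (adjusted p = 0.00502, limma). The Sohlh1 KO call ended within chip 1 (0.45, adjusted p = 0.0597), and the Sohlh2 KO call ended with chip as a block (0.58, adjusted p = 0.0545). Ube3a, a ubiquitin ligase whose imprinting is known from neurons, averaged 8.36 ± 0.59 in Sohlh1 KO (SD, n = 4) and 8.42 ± 0.14 in Sohlh2 KO (SD, n = 3), against 8.74 ± 0.23 in wild type (SD, n = 4), and was not called (adjusted p = 0.252 and 0.387). Magel2 and Asb4 were above background on too few arrays to be tested.

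Among membrane, matrix and other proteins 7 of 12 members were tested, of which 2 rose and 1 fell in Sohlh1 KO and 1 rose and 0 fell in Sohlh2 KO. The rises in Sohlh1 KO were those of Mest and of the brightest probe of H13. Mest, a paternally expressed member of the alpha/beta hydrolase fold family, was at 13.28, 12.36, 12.50 and 12.06 in Sohlh1 KO and at 12.17, 12.40 and 11.80 in Sohlh2 KO, against 11.10, 10.69, 11.41 and 11.54 in wild type. Sohlh1 KO 1 was the highest, and no knockout array reached down to wild type. The rise was 2.58-fold in Sohlh1 KO (1.37 ± 0.25 SE, adjusted p = 0.00109), with 1.92-fold in Sohlh2 KO (0.94 ± 0.27, adjusted p = 0.0231, limma), and both other probes of Mest rose as well, by 1.51 and 1.52 in Sohlh1 KO and by 1.31 and 1.36 in Sohlh2 KO. The Sohlh2 KO call of the brightest probe was lost when any of 4 arrays was left out, with an adjusted p = 0.0531 without wild type 1, 0.0696 without wild type 2, 0.0714 without Sohlh2 KO 2 and 0.0965 without Sohlh2 KO 3.

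Slc22a18, a maternally expressed transporter of the organic cation family, was the only other member that fell. It was at 5.77, 5.96, 6.09 and 6.52 in Sohlh1 KO and at 6.70, 6.21 and 6.43 in Sohlh2 KO, against 6.55, 6.90, 7.18 and 6.90 in wild type. Sohlh1 KO and wild type did not overlap but came within a small gap, and the fall was 1.74-fold (-0.80 ± 0.18 SE, adjusted p = 0.00449, limma). Sohlh2 KO overlapped wild type, with a difference of -0.44 ± 0.20 and an adjusted p = 0.128.

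H13, which encodes signal peptide peptidase and holds the retrogene Mcts2 in an intron, was at 9.50, 9.26, 9.32 and 9.76 in Sohlh1 KO and at 9.19, 9.28 and 9.05 in Sohlh2 KO, against 9.03, 8.89, 8.94 and 9.11 in wild type. Its brightest probe rose 1.38-fold in Sohlh1 KO (adjusted p = 0.0145, limma) and was not called in Sohlh2 KO (0.18, adjusted p = 0.37). The 7 H13 probes above background did not move together: in Sohlh1 KO another probe rose by 0.48 (adjusted p = 0.0419) while one fell by 0.59 (adjusted p = 0.0101), both adjusted over all probes. Averaged over its probes H13 differed by -0.05 (adjusted p = 0.736), so no direction is given for the gene.

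The remaining members of this group were not called in either knockout. Dcn, the proteoglycan decorin of connective tissue, averaged 14.32 ± 0.14 in Sohlh1 KO (SD, n = 4) and 14.17 ± 0.02 in Sohlh2 KO (SD, n = 3), against 14.32 ± 0.06 in wild type (SD, n = 4; adjusted p = 0.994 and 0.39). Cd81, a tetraspanin, averaged 13.92 ± 0.10 and 13.86 ± 0.04 in the knockouts, against 13.86 ± 0.07 in wild type (adjusted p = 0.704 and 0.979). The histone chaperone gene Nap1l4 differed by 0.06 ± 0.14 SE and 0.11 ± 0.15 (adjusted p = 0.775 and 0.635), and Ppp1r9a, which encodes the neuronal actin-binding protein neurabin, by -0.26 ± 0.14 and -0.23 ± 0.15 (adjusted p = 0.167 and 0.288, limma). Sgce, Kcnq1, Calcr and Tfpi2 were below background on every array, and Begain was above it only on 2 Sohlh1 KO arrays.

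**Figure D2:**
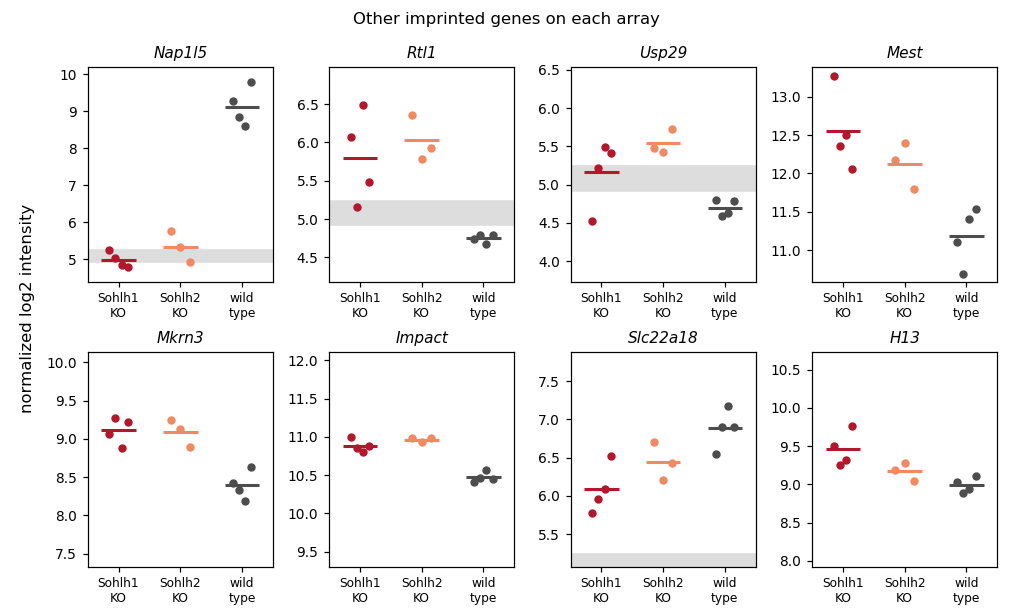
Normalized log2 intensity (vertical axis, a range of its own in each panel) of 8 further imprinted genes on every array of Sohlh1 KO (4), Sohlh2 KO (3) and wild type (4); points are arrays, bars are group means, and the grey band is the range over arrays of the lowest signal above background. Rtl1 and Usp29 lie below the band in wild type, whereas Nap1l5 lies near the band in the knockouts.

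The imprinted noncoding RNAs gave little signal. Kcnq1ot1, the paternally expressed antisense RNA that silences its neighbours on the paternal copy, averaged 5.61 ± 0.31 in Sohlh1 KO (SD, n = 4) and 5.46 ± 0.31 in Sohlh2 KO (SD, n = 3), against 5.81 ± 0.19 in wild type (SD, n = 4), and was not called (adjusted p = 0.429 and 0.215, limma). All 3 probes of Meg3, the maternally expressed RNA near Dlk1, were below background on every array, which limits what the arrays could show for it.

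By parental copy, 8 of 15 tested paternally expressed genes rose and 1 fell in each knockout. Of all genes tested, 16.3% rose and 16.4% fell in Sohlh1 KO, and 12.5% rose and 13% fell in Sohlh2 KO. Of 11 maternally expressed genes 4 rose and 1 fell in Sohlh1 KO, and 3 rose and 0 fell in Sohlh2 KO. The 4 include H13, counted by its brightest probe although its probes disagreed. Rtl1 and Zim1 in both knockouts and Usp29 in Sohlh2 KO count as rises, although no wild-type array was above background for them. Among members above background on all 11 arrays, 7 of 10 paternally expressed genes rose in Sohlh1 KO and 6 of 10 in Sohlh2 KO. Of those 10, 0 fell. Of 9 such maternally expressed genes 3 rose and 1 fell in Sohlh1 KO, and 2 rose and 0 fell in Sohlh2 KO. No all-gene share was taken over genes above background on all 11 arrays. The median log2 difference of the paternally expressed genes was 0.461 in Sohlh1 KO and 0.492 in Sohlh2 KO (0.44 and 0.49 with Rtl1 and Usp29 at their bounds), and that of the maternally expressed genes was 0.061 and 0.112 (0.06 and 0.11 with Zim1 at its bound). The maternally expressed class held 5 tested genes whose imprinting is known mainly from placenta or brain (Cd81, Dcn, Nap1l4, Ppp1r9a and Ube3a), of which 0 were called in either knockout by limma. The medians of those 5 were 0.001 in Sohlh1 KO and -0.147 in Sohlh2 KO, and those of the other 6 were 0.557 and 0.610. The difference between the classes was not tested, and the list of placenta and brain genes was drawn up with earlier results of these data known.

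**Figure D3:**
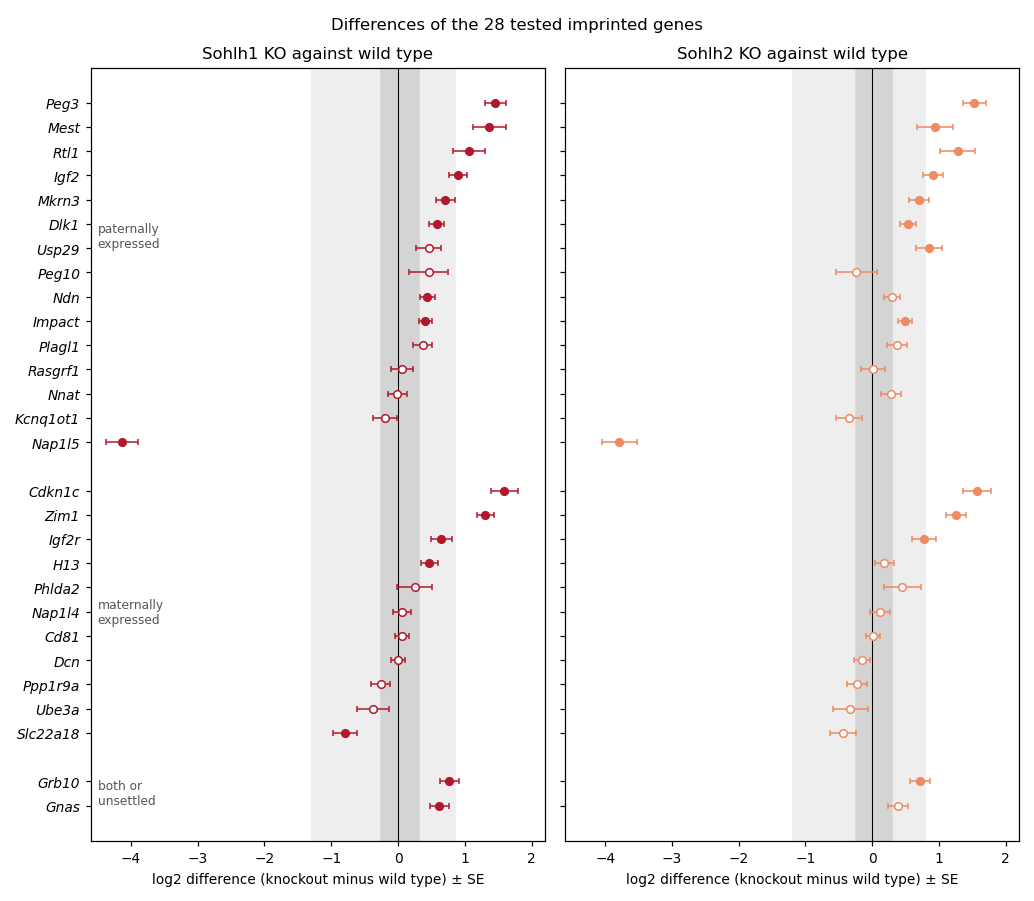
Log2 difference ± SE (horizontal axis, knockout minus wild type) of the 28 tested imprinted genes by expressed copy, for Sohlh1 KO (left) and Sohlh2 KO (right) against wild type; filled points passed an adjusted p under 0.05, and the dark and light bands hold the middle 50% and 90% of all 13350 genes. Nap1l5 lies far to the left, and 5 members in Sohlh1 KO exceed a fitted log2 difference of 1. With Zim1 and Rtl1 at their bounds 3 do (Peg3, Mest and Cdkn1c). Zim1, Rtl1 and Usp29 are drawn at fitted values although they were below background on every wild-type array.

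Of the 10 genes known for a shared decline after birth in mice, 8 were tested. In Sohlh1 KO 7 of them rose (16.3% of all genes did), in Sohlh2 KO 6 rose (12.5% of all genes did), and 0 fell in either. This list was drawn up with earlier results of these data known. Their median log2 difference was 0.836 in Sohlh1 KO and 0.816 in Sohlh2 KO, the 8 being Igf2, Plagl1, Mest, Peg3, Dlk1, Grb10, Ndn and Cdkn1c. The members that missed the threshold were Plagl1 in each and Ndn in Sohlh2 KO.

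Neighbours in an imprinted domain, in the order of RefSeq's GRCm38.p6 annotation, did not all move alike. In the domain of Zim1, Peg3 and Usp29 the maternally expressed Zim1 and the paternally expressed Peg3 both rose in each knockout. In the stretch from H19 and Igf2 to Nap1l4, joined by nearness alone, Igf2 and Cdkn1c rose. Slc22a18, the member after Cdkn1c, fell in Sohlh1 KO, and Cd81, Kcnq1ot1, Phlda2 and Nap1l4 were not called. In the domain of Begain, Dlk1, Meg3 and Rtl1 both protein genes read from the paternal copy rose, and Meg3 was not detected. In the domain from Ube3a to Peg12, Ndn rose in Sohlh1 KO and Mkrn3 in both knockouts. Ube3a was not called there, with differences of -0.38 in Sohlh1 KO and -0.33 in Sohlh2 KO, and Magel2 and Peg12 were too faint to test. In the domain of Calcr, Tfpi2, Sgce, Peg10, Ppp1r9a and Asb4, 0 members were called (limma), and 2 were tested. The domains hold listed members only, and imprinted genes outside the list were not placed in them. Among those genes, Pon2 (-0.51 in Sohlh1 KO and -0.78 in Sohlh2 KO) and Pon3 fell in both knockouts. Ins2, Trpm5 and Tspan32 rose in both, and Snurf fell in Sohlh1 KO (-0.38, adjusted p = 0.017, limma). A domain without calls among its members is therefore not shown to be unchanged.

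The knockouts set against each other gave 0 calls among the 28 members (limma), where 0.03% of all genes were higher in Sohlh1 KO and 0.00749% lower (0.0375% in either direction). The smallest adjusted p was 0.564, for Peg10, the 1 member with an unadjusted p under 0.05, and its difference of 0.70 (Sohlh1 KO minus Sohlh2 KO) was the largest. Misses at this number of arrays do not show that the knockouts act alike. The members that passed in 1 knockout and missed in the other (Ndn, Gnas, Slc22a18, H13 and Usp29) had direct differences of 0.14, 0.23, -0.37, 0.28 and -0.38.

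Several probes stood for 15 of the tested members. In 10 of these 15 all probes pointed the same way in Sohlh1 KO, and in 9 of 15 in Sohlh2 KO. All 3 probes of Mest rose in both knockouts, while probes of H13, Ube3a, Ppp1r9a, Dcn, Plagl1 and Slc22a18 had both signs in at least 1 comparison. For Slc22a18 the dimmer probe differed by -0.26 in Sohlh1 KO and 0.13 in Sohlh2 KO and was not called.

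**Figure D4:**
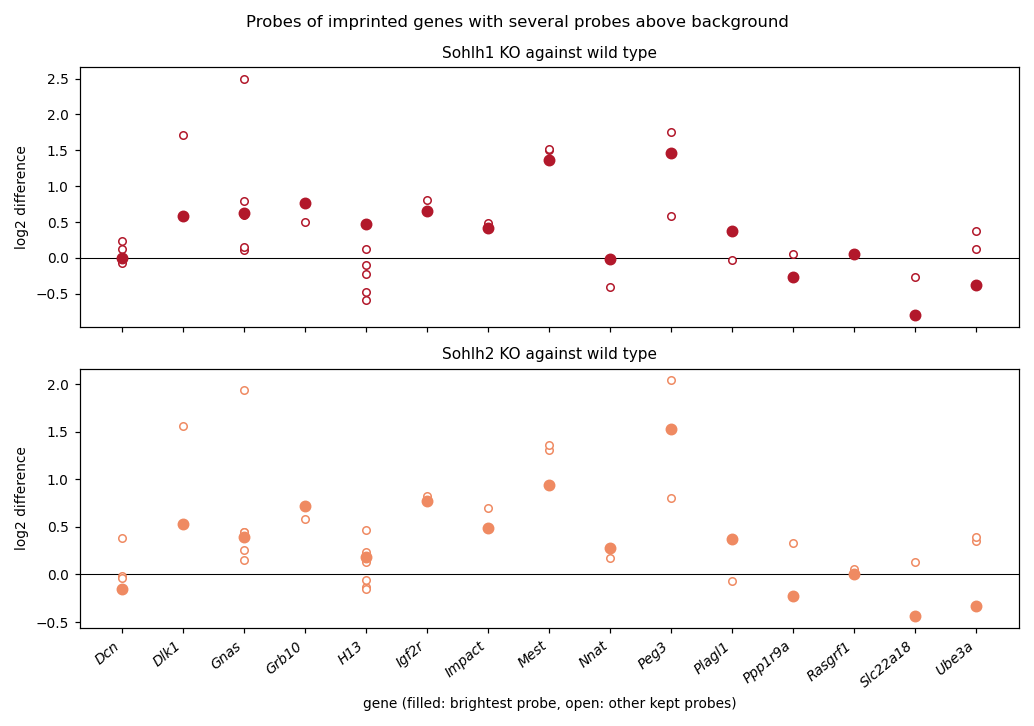
Log2 difference (vertical axis, knockout minus wild type) of each probe above background for the 15 imprinted genes with several such probes, for Sohlh1 KO (top) and Sohlh2 KO (bottom) against wild type; filled points are the brightest probe, open points the others. The probes of H13 lie on both sides of 0, and 1 Gnas probe and the dimmer Dlk1 probe lie far above the brightest.

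Imprinted genes outside the 42 moved in both directions. Of 46 further genes 33 were tested, and 9 rose and 10 fell in Sohlh1 KO, 7 rose and 6 fell in Sohlh2 KO. Their medians were 0.114 and 0.013. The shares of all genes that rose and fell were 16.3% and 16.4% in Sohlh1 KO, and 12.5% and 13% in Sohlh2 KO. Gpr1, a chemerin receptor gene, averaged 4.94 in Sohlh1 KO and 4.93 in Sohlh2 KO, against 6.84 in wild type. Gpr1 was at least 3.33-fold lower in Sohlh1 KO, where 0 of 4 arrays were above background, and at least 3.2-fold lower in Sohlh2 KO, where 1 of 3 was. The AMP deaminase gene Ampd3 fell 2.08-fold and 2.21-fold (adjusted p = 6.67e-05 and 8.6e-05, limma). The cation channel gene Trpm5 rose 2.74-fold and 2.71-fold (adjusted p = 6.72e-05 and 0.000187). The tetraspanin gene Tspan32 rose 3.77-fold and 2.11-fold (adjusted p = 0.000313 and 0.028), and the paraoxonase gene Pon3 fell 1.79-fold and 2.06-fold (adjusted p = 0.00104 and 0.000463).

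Genes that set or keep imprints were called in both directions. Of 20, 16 were tested, and 2 rose and 5 fell in Sohlh1 KO, 1 rose and 4 fell in Sohlh2 KO (medians 0.105 and 0.059), against all-gene shares called of 32.7% and 25.5%, and 9 of the 16 had a positive difference in each. Dnmt3l, the partner of the methyltransferases that sets imprints in oocytes, fell 4.30-fold in Sohlh1 KO (adjusted p = 1.21e-06), and was at least 4.51-fold lower in Sohlh2 KO (adjusted p = 2.26e-06, limma), where 1 of 3 arrays was above background. Dppa3, a maternal protein that guards methylation in the early embryo, fell 3.99-fold and 2.79-fold. Dnmt1, the maintenance methyltransferase, fell 2.00-fold and 2.03-fold, and its partner Uhrf1 fell 1.56-fold and 1.39-fold. Zfp42 rose 1.75-fold in Sohlh2 KO. Trim28, the co-repressor that ZFP57 recruits, differed by 0.35 and 0.40 and was not called (adjusted p = 0.192 and 0.187). DNA methylation was not measured, and these falls came with that of the oocyte markers given above, whose part was not tested.

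Around IGF2, 13 of 15 pathway genes were tested, and 5 rose and 2 fell in each knockout (medians -0.004 and 0.039). All-gene shares were 16.3% higher and 16.4% lower in Sohlh1 KO, and 12.5% higher and 13% lower in Sohlh2 KO. The genes Igf2bp1 and Igf2bp3 encode proteins of fetal tissue that bind Igf2 mRNA. Igf2bp1 rose 3.33-fold in Sohlh1 KO and 4.11-fold in Sohlh2 KO (adjusted p = 1.92e-05 and 1.15e-05), and Igf2bp3 rose 3.45-fold and 3.10-fold (adjusted p = 2.66e-06 and 1.6e-05, limma). The binding protein gene Igfbp2 rose 1.96-fold and 2.02-fold, whereas Igfbp7 fell 1.90-fold and 1.67-fold. The receptor Igf1r differed by 0.00 and -0.08 and was not called (adjusted p = 0.989 and 0.754).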

How the data were processed

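Total RNA of 11 newborn ovary samples was read on single arrays. The deposited values are linear intensity, already quantile normalized and not background-subtracted as the values show (98.39 to 33822, median 152), without detection p-values. They were read with BeadStudio 3.2, per the submitters' processing notes. The deposited series matrix holds log2 values that equal the log2 of these to within 0.005.

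From the intensities, background was corrected by normexp (offset 16) in limma 3.58.1 (R 4.3.3, statmod 1.5.0) with 1276 olfactory receptor probes as negative controls. Arrays were then quantile normalized and put on the log2 scale. Background was taken to end at the 95th percentile of those controls on its array (intensity of 149.3 to 158.9). A probe had to exceed it on 3 arrays or more, as 24451 of 45281 did, and the brightest per gene was used. Symbols came from the platform annotation, and 39 of 39 members matched RefSeq by Entrez identifier.

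A mean per group was fitted with every array in 1 model, leaving 8 degrees of freedom, with Benjamini-Hochberg adjustment over all 13350 genes of a comparison and calls at an adjusted p under 0.05. "At least" folds set each array of the dim group to the higher of its own value and the lowest signal above background there. They hold on background-corrected values only, and faint genes differed less without that correction. The fit was tested on simulated data. The members, gene lists and marker lists were chosen with earlier results of these data known. Members called against wild type were named, with values on every array for the 16 with the largest difference, and of other lists up to 4 called genes with the smallest adjusted p. Lists are described by counts and medians.

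Alternatives were other background corrections, scalings, filters and probe choices, the series matrix, array weights, a block for chip or for replicate number, each chip alone, the compared groups alone, omission of each array in turn and of wild type 2 and 3 together (whose names hold an unexplained b), a 2-fold minimum, and the maternal class without genes imprinted mainly in placenta or brain. Counting only members above background on all arrays was added after the data were seen.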

Additional observations from a re-analysis of the deposited data

Results flagged for a closer look

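In 2 of 56 groups of 4 arrays checked, 1 array lay far from the other three, where chance gives about 1 in 20. Both were wild type 4. Peg3 was at 10.79 there and at 10.28 to 10.36 on the other wild-type arrays, and Cdkn1c was at 13.11 there and at 12.49 to 12.52 on the others. Each lay toward the knockout values. Without wild type 4 the log2 differences of Peg3 were 1.58 in Sohlh1 KO and 1.65 in Sohlh2 KO, and those of Cdkn1c were 1.74 and 1.72.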

How the results depend on the processing

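Of 29 calls of single genes against wild type, 18 were held under every alternative they were run in. The 2-fold minimum was not among these, as it was applied to counts only. In Sohlh1 KO, H13 turned to -0.05 with the mean of all kept probes. With wild type 2 and 3 left out, Ndn, Slc22a18 and H13 lost their calls in Sohlh1 KO (adjusted p = 0.0988, 0.0739 and 0.149) and Mest, Mkrn3 and Usp29 in Sohlh2 KO (0.131, 0.0633 and 0.0847). The count of members higher was 14 in Sohlh1 KO and 12 in Sohlh2 KO, and 5 and 4 with a 2-fold minimum on fitted values, or 3 and 3 with members faint in wild type at their bounds (added after the data were seen). With chip as a block it was 12 and 8 (Igf2r and H13 lost in Sohlh1 KO, and Igf2r, Usp29, Impact and Rtl1 in Sohlh2 KO), and within chip 1 it was 11 in Sohlh1 KO. The count lower in Sohlh1 KO was 2, and 1 without wild type 2 and 3, with a 2-fold minimum, or among members above background on all arrays. The count lower in Sohlh2 KO was 1, and 2 with array weights and 0 among members above background on all arrays. With 1 array left out these counts ran from 14 to 16 and 11 to 13 higher, and from 2 to 3 and 1 to 1 lower.

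The paternal median in Sohlh1 KO of 0.46 was 0.32 without background correction and from the series matrix, and 0.43 to 0.50 with 1 array left out. In Sohlh2 KO the paternal 0.49 was 0.29 without background correction or without a filter, 0.28 from the series matrix, 0.43 with an offset of 50, cyclic loess or the strict filter, 0.60 with the mean of all probes, and 0.47 to 0.53 with 1 array left out. The maternal median in Sohlh1 KO of 0.06 was 0.10 with chip as a block and within chip 1, 0.56 without genes imprinted mainly in placenta or brain, and 0.03 to 0.17 with 1 array left out. In Sohlh2 KO the maternal 0.11 was 0.16 with median scaling, 0.06 without a filter, with the replicate block or with chip as a block, 0.61 without placenta and brain genes, and 0.06 to 0.15 with 1 array left out. The replicate block ended no call and added 1, Plagl1 in Sohlh1 KO (adjusted p = 0.0229, limma). Deviations of same-numbered arrays correlated at -0.20 to 0.13. With so few arrays this cannot settle whether same-numbered samples were paired. The descriptions of the Sohlh2 KO samples also number them differently from their titles, whose numbers were used. Faint genes shrink without background correction: Zim1 was 0.42 and 0.40, Rtl1 0.32 and 0.39, Usp29 0.25 in Sohlh2 KO, and Slc22a18 -0.34 in Sohlh1 KO.

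Over all genes, 3403 calls in Sohlh2 KO became 1712 with chip as a block, 5225 with array weights, 1868 without wild type 2 and 3, and 1213 at 2-fold, and 4367 in Sohlh1 KO became 2540 and 1405 under the last pair. The 5 calls between the knockouts ranged from 1 to 69. The cause of these shifts was not tested. What the arrays can show is limited by 3 or 4 arrays a group, by background for the 11 undetected members, and by chip, which Sohlh2 KO and wild type never share, so that their blocked values pass through Sohlh1 KO.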
